A study of Mus musculus with 10 samples.

Results

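The peaks described here are the 347 m6A peaks of the 37 gene identifiers (gene IDs) that carried 8 or more peaks each in a map of mouse hypothalamic neural progenitor cells. They were chosen by counting, in the deposited peak table, how often each gene ID occurred, and IDs that joined several genes with commas were left out. They made up 1.64% of the 21195 peaks, and their genes made up 37 of the 10300 gene IDs without a comma. A further 9 joined IDs with 8 or more peaks (112 peaks, up to 41 in one of them) fell outside by this rule. The number of called peaks thus chose the members, and it came from the same contrast of immunoprecipitated (IP) with input RNA as every read value below. All values are therefore given as a description, with no test.

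N6-methyladenosine (m6A) is a methyl mark that the Mettl3-Mettl14 enzyme complex places on adenosines of messenger RNA, mostly in long internal exons and around stop codons. Reader proteins of the YTH family bind it, and methylated messages are often turned over faster, which in neural progenitors bears on how long cells keep dividing before they differentiate. In m6A sequencing, RNA is broken into short fragments, an antibody pulls out those that carry the mark, and a peak is a stretch where the pulled-down reads exceed those of the input.

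Per the labels, the cells came from the hypothalamus of Mettl14f/f mouse embryos at E14.5, in which both copies of Mettl14 are floxed, and grew with FGF2 and EGF (20 ng/ml each). Control cells received lenti-EGFP and Mettl14 knockout cells lenti-EGFP-Cre, a lentivirus whose Cre recombinase deletes the floxed part, and EGFP-positive cells were sorted after 72 h. Poly(A) RNA was broken into fragments of about 80 nucleotides before the pull-down with an m6A antibody. Every group therefore carried the floxed allele and was exposed to virus and sorting, and no label says whether replicates came from separate litters or cultures. The labels list 4 control and 4 knockout IP libraries and 1 input library of each genotype. The table had 1 input and 1 IP column of reads, with no library or genotype named. Whether these pool all libraries, as sums or means, and whether knockout libraries are among them is unknown, so every ratio below may or may not include knockout cells. Therefore knockout and control could not be compared, the loss of Mettl14 could not be checked, and no value has an SD over replicates. These are bulk samples, so fewer cells of a type and less RNA per cell cannot be told apart. Of the progenitor markers, 6 of 8 held a peak, with 3090 input reads in Notch1, 1370 in Sox9, 571 in Hes1, 134 in Pax6, 63 in Nes and 10 in Sox2, and Vim and Fabp7 held none. The summed input reads were 5238 for this list. Peaks also lay over 3 of 5 neuronal (36253 reads, 35740 of them in Map2), 3 of 5 astrocyte (37160) and 2 of 4 oligodendrocyte lineage markers (44306, 43210 of them in Olig2), and over none of 6 microglial, blood and vessel markers. Dcx, Snap25, Gfap, Aldh1l1, Sox10 and Mbp held no peak. A marker without a peak may still be expressed, and the part of such cells in the results below was not tested.

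Of the 30 members with a RefSeq promoter, 11 had peaks that reached its window on their own strand. A window ran from 250 bases before to 50 after an annotated start (GRCm38.p6). In 6 of the 11 such a peak was at most 1000 bases wide, and in the others only wider peaks reached it. The share over all genes was not counted. The 4 windows below are shown because in Mga and Tnrc18 the peak began at the annotated first base, in Chd8 it reached 20 bases further upstream, and in Zfp142 it covered most of the window, and they were picked after their values were seen. Capitals mark the bases that the peak covered.
Mga, chr2:119896978-119897277, plus strand: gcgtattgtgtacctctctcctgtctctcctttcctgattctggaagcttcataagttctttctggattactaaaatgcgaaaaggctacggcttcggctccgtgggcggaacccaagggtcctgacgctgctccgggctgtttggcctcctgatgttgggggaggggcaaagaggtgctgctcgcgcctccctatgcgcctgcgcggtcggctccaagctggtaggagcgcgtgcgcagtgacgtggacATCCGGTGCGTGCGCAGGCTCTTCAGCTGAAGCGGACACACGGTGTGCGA
Tnrc18, chr5:142817613-142817912, minus strand: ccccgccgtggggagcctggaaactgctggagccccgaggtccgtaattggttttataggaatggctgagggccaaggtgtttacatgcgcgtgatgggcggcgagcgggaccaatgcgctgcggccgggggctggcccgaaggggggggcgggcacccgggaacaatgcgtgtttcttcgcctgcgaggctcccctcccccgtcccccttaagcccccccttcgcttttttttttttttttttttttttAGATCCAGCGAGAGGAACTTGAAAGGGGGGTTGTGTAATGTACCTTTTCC
Chd8, chr14:52257711-52258010, minus strand: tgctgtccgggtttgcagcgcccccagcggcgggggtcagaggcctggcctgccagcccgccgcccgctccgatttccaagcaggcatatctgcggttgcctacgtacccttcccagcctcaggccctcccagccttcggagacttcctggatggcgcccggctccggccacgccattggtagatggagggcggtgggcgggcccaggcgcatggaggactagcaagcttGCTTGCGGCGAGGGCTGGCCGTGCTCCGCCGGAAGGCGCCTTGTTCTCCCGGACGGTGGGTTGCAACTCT
Zfp142, chr1:74587979-74588278, minus strand: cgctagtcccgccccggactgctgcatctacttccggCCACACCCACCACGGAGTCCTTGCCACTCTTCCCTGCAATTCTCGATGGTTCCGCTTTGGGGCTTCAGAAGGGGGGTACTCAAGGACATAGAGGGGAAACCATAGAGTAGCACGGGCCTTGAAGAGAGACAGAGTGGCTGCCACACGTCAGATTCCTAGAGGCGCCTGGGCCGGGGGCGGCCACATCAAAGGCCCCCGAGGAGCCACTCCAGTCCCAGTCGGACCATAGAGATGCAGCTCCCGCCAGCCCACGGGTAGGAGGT
The overlaps were 50 bases in Mga, 50 in Tnrc18, 70 in Chd8 and 263 in Zfp142. The letters GGAC, the core of the usual m6A motif, occurred on the gene strand once in the covered bases of Mga, once in those of Chd8, 2 times in those of Zfp142 and not in those of Tnrc18. On either strand (GGAC or its reverse complement GTCC), 87.7% of the 32851 promoter windows of the table hold these letters, and 65.6% do on the gene strand (18.9% in the last 50 bases), so a match is common and only describes the window. The Mga peak, 20256 bases wide, had 1705 input and 7510 IP reads, which gives 4.40 IP reads per input read (95% interval 4.18 to 4.65). In Chd8 the counts were 905 and 3655, a ratio of 4.04 (3.75 to 4.35). The Tnrc18 start peak stood at 2.53 from 432 and 1091 reads, and that of Zfp142 at 1.16 from 954 and 1102. Start peaks of these 4 genes thus spanned high and low ratios, with Mga, Chd8 and Tnrc18 above the median of all peaks (2.35) and Zfp142 below it. By the log2 fold change in the authors' deposited table, Mga (4.78) alone lay above the 3.06 of all peaks, and Chd8 (2.51), Tnrc18 (1.88) and Zfp142 (0.81) lay below. These ratios are plain quotients of the deposited reads, not corrected for library depth, and their exact Clopper-Pearson intervals cover counting error only.

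Of the 37 gene IDs, 36 took the name of a protein-coding RefSeq gene by position. The count per gene ran from 8 to 18 with a median of 8: 20 genes had 8 peaks, 5 had 9, 4 had 10, 2 had 11, 3 had 12, 2 had 13 and Zfp469 had 18. They were spread over 17 chromosomes, 20 on the plus and 17 on the minus strand. Most were long genes. The median RefSeq span was 153 kb, with the shortest, 21.8 kb, for Zfp142, against 28.7 kb for the 9674 protein-coding genes that held any peak, and 35 of 36 members lay above that median. The one unnamed ID, ENSMUSG00000024018 on chromosome 17, had 10 peaks on the minus strand. RefSeq genes on both strands lay over them (Cmtr1 and Gm28043 on the plus strand, Ccdc167 on the minus), and 2 of its intervals were listed with identical ends for a plus-strand ID too.

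In depth and width the members' peaks were close to the whole map. A member peak had a median of 452 input reads (6 to 14887) and 722 IP reads (51 to 85144), where all peaks had medians of 466 and 864. The median width was 875 bases, and 891 over all peaks, with 51 member peaks (14.7%) wider than 10000 bases against 13.0% of all. Peaks are written as unbroken intervals, so wide ones cross introns. The median ratio of IP to input reads was 2.15 in the members and 2.35 over all peaks. Fewer IP than input reads were found in 59 member peaks (17.0%), in 25 of the genes, and in 11.3% of all peaks. Since the ratio is not corrected for depth, values under 1 do not show depletion.

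Zinc finger and other transcription factor genes made up 5 members with 58 peaks, and their median ratios, from 2.44 in Zfp462 to 4.35 in Zfp469, lay above the 2.35 of all peaks in each case. By median log2 fold change in the authors' deposited table, Zfp462 (2.87) and Zfp469 (3.02) lay below the 3.06 of all peaks and the other 3 above it. Zfp469 encodes a large zinc finger protein, and its 18 peaks were packed into 12829 bases of chromosome 8 (122258670 to 122271498). Each of the 18 had a ratio between 2.92 and 6.15, on only 27 to 171 input reads. Zfhx4 and Zfhx3 encode giant zinc finger homeobox factors, and Zfhx3 is known for its role in the hypothalamic circadian centre. Zfhx4 had 13 peaks between 0.755 and 5.47. Zfhx3 had 9, between 1.72 and 9.50, on 6 to 56 input reads, the thinnest coverage of any member. Its 3 peaks nearest the 5' end, 77146 to 320513 bases wide, were the lowest of the gene (1.76, 1.72 and 2.12), and the 6 peaks downstream, at most 500 bases wide, ran from 2.88 to 9.50. Zfp462 (10 peaks) and Zfp142 (8) ranged from 0.841 to 5.26 and from 1.16 to 7.96.

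Chromatin genes made up 7 members. Among histone modifiers were the H3K4 methyltransferases Kmt2a (12 peaks) and Kmt2c (8) and the acetyltransferase Kat6b (8), with median ratios of 1.29, 2.78 and 1.82. Kmt2a had 4 peaks between 2.88 and 3.70 and 1 at 1.95, and its other 7 lay between 0.772 and 1.31. In Kat6b a single 125-base peak with 2896 input and 16337 IP reads reached 5.64 and held 73.2% of the gene's IP reads. Chd8, an ATP-dependent remodeler, Baz2b and Phf20l1, which read modified histones, and Mga, a partner of Max, formed the remodeler and reader list. Chd8 had the lowest median ratio of all members, 1.08, although 3 of its 9 peaks reached 4.04, 6.52 and 5.79. From 5' to 3' the ratios of the Mga peaks were 4.40, 0.906, 2.29, 0.781, 1.91, 4.88, 0.708 and 6.94. High and low peaks of Mga lay side by side in places, the last pair 175 bases apart. Baz2b was even and low, from 0.797 to 1.78 over 8 peaks, and Phf20l1 ran from 0.666 to 5.84.

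Of the cytoskeletal linkers, 5 were members. Dst and Macf1 encode spectraplakins, which tie actin to microtubules, Ank2 encodes ankyrin B, and Akap9 and Akap6 anchor protein kinase A. Dst had 13 peaks with a median ratio of 1.49, none above 3.64. In Ank2 the peak at chr3:126922637-126925750 had 14887 input and 85144 IP reads, 83.9% of all IP reads in the gene's 12 peaks but 51.9% of the input reads. Its neighbours on both sides were the 2 lowest of the gene, 0.917 with 5770 input reads and 0.764 with 3554. In Macf1, 1 peak of 13400 input and 50935 IP reads (ratio 3.80) held 88.5% of the gene's IP reads and had a 100-base neighbour, 50 bases away, at 0.697. For Akap6 the largest share was 83.0%, in the peak nearest the 3' end. Akap9 had 4 of 8 peaks under 1 and a highest ratio of 4.25.

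Cell surface and adhesion genes on the list included Fat1 and Fat4, giant protocadherins, and Robo1, a receptor for Slit guidance cues. Fat1 had the most input reads of any member over its peaks (31423), with no peak under 1002, and its 10 ratios ran from 0.874 to 5.01. Fat4 had a median of 3.13, with 0.835 as the lowest and 5.64, in the last peak, as the highest. Robo1 stayed between 0.701 and 2.82. Rnf213, an E3 ligase, was the only member of the ubiquitin and protein turnover list, with a median of 3.13. The lists of DNA repair, replication and mitosis genes, of RNA binding, decay and translation genes, and of signalling kinases, phosphatases and GTPase regulators held no member. They name 45, 53 and 56 individual symbols and do not cover their classes. Members in no list include kinases, RNA processing proteins and a mitotic kinesin.

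The remaining 15 members were in no list. Pclo, which encodes the presynaptic scaffold piccolo, had 12 peaks and the second highest median ratio, 3.77, with 11 peaks between 2.29 and 5.37 and 1 at 0.938. The Pclo peaks had a median of only 92 input reads (19 to 452). Some of them overlapped opposite-strand peaks with 649 and 1255 input reads. Stard9, a mitotic kinesin, had 11 peaks with ratios of 1.21 to 4.70, and Nhs 11 with a median of 2.58. Enah, an actin regulator, had a median of 2.55, Ppp1r9a, which encodes the actin-binding neurabin, 1.14, the centrosomal Cep170 1.25, and Nckap5 2.08. The kinases Aak1, of clathrin-coated vesicles, and Rock1, which acts on the actin cytoskeleton, had medians of 1.35 and 2.20, and the adhesion receptor Adgrl2 had 1.51. Thrap3 and Bclaf1, related proteins of RNA processing, and Fip1l1, a polyadenylation factor, had low medians, 1.20, 1.09 and 1.26. Their highest peaks still stood at 5.39, 3.04 and 5.60. Tnrc18 stood at 2.53 and the unnamed ID at 1.51.

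**Figure D1:**
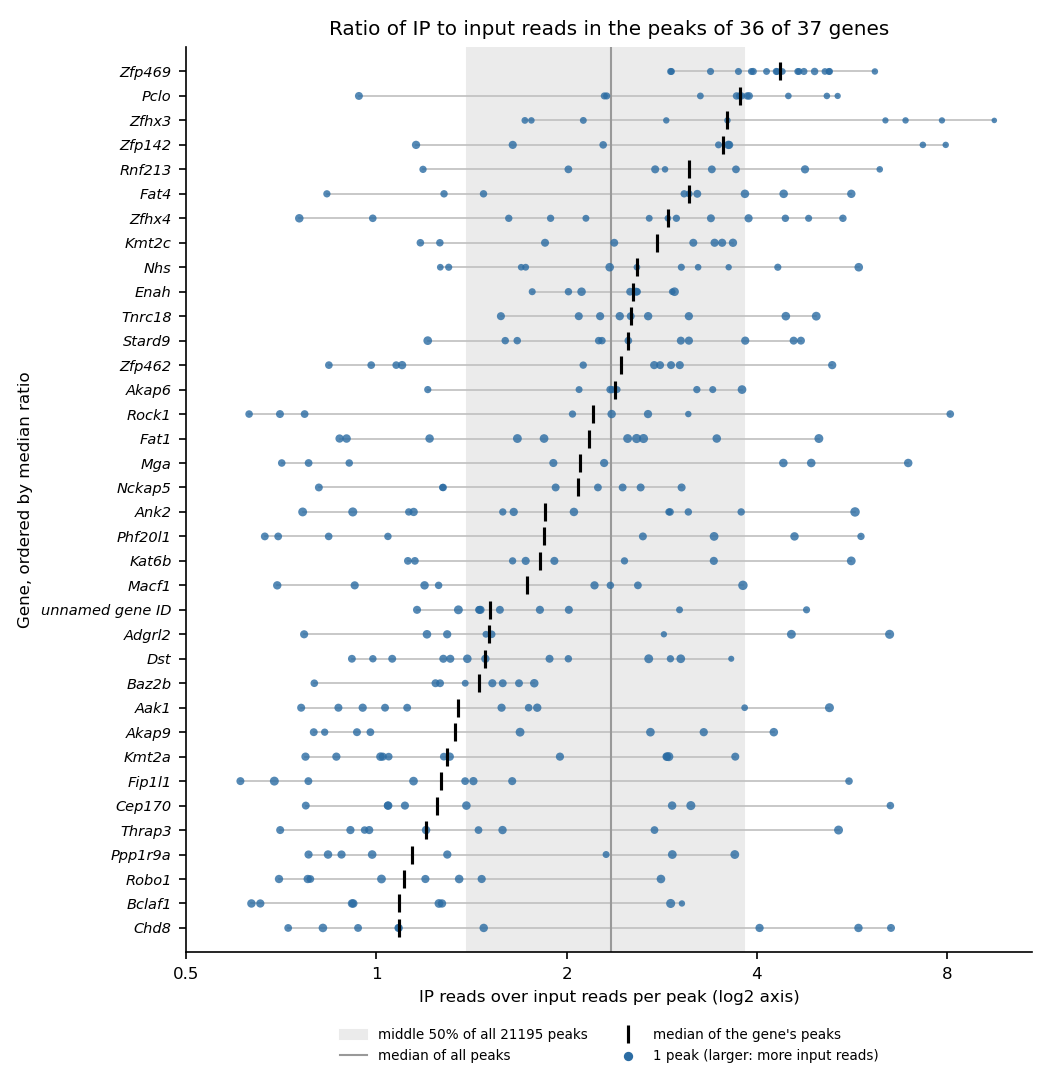
Each point is 1 peak, with IP over input reads on a log2 axis and 36 of the 37 genes in rows ordered by their median (black bar); point size grows with input reads, and the grey band and line give the middle of all 21195 peaks and their median of 2.35. Zfp469 heads the order at 4.35 with a narrow row, and Chd8 ends it at 1.08 with points out to 6.52.

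The spacing of peaks mixed short and long gaps. Between neighbouring peaks of a gene the median gap was 600 bases in the genome, introns included, over 310 pairs, with quartiles of 175 and 4329 bases and a range of 25 to 500775. In 174 pairs (56.1%) the gap was at most 1000 bases, and in 52 (16.8%) it exceeded 10000. A gap of the latter size occurred in 27 of the 37 genes, and the median gap of a gene was at most 1000 bases in 18. In gene IDs with 2 to 7 peaks, the median gap was 900 bases over 8682 pairs, with 52.2% at most 1000 and 21.7% over 10000. In the 49 IDs with 7 peaks, just outside the rule, the median was 525. No peaks of a member overlapped each other. Of the 174 gaps up to 1000 bases, 170 were whole multiples of 25, as were 34 of the 136 longer ones, so neighbours in close reach lay on a grid with steps of 25 bases. The grid was not particular to the members. In gene IDs with 2 to 7 peaks, 4343 of 4528 gaps up to 1000 bases were such multiples.

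The longest runs of peaks with gaps of at most 1000 bases held 9 peaks in Zfhx4, 8 in Stard9 and 7 each in Zfp469 and Pclo. The median longest run was 3 peaks, 6 genes had none longer than 2, 10 genes had a run of 5 or more, and in no gene did it take in all peaks. The 8 peaks of the Stard9 run covered 7100 of 8375 bases (chr2:120695896-120704270), and the 7 of Zfp469 covered 1700 of 2425. The 7 of Pclo, some of them very wide, covered 160558 of 162683 bases, so its short gaps do not mean a compact cluster. By median gap, the tightest genes were Cep170 (200 bases), Zfp469 (225), Bclaf1 (250), Stard9 (325) and Pclo (350, shared with Zfp462 and Mga). The widest were Akap9 (5195), Rock1 (4834), Zfhx3 (4618), Macf1 (4345) and Rnf213 (3323). Long gaps included one of 479710 bases in Nckap5 and one of 261353 in Robo1.

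The count of 8 rests in part on narrow gaps. A gap of exactly 25 bases, the shortest in the table, separated 25 pairs in 18 genes, and 63 pairs were at most 100 bases apart. With neighbours within 25 bases counted as 1 peak, 27 of the 37 genes kept 8 or more. Within 100 bases 18 did, within 250 bases 9, and within 1000 bases none. The 9 were Aak1, Ank2, Kmt2a, Nhs, Pclo, Ppp1r9a, Rnf213, Zfhx4 and Zfp469. Narrow gaps did not always join peaks of like ratio. Of the 25 pairs at 25 bases, 11 had exact 95% intervals that did not overlap. The largest difference was in Cep170, whose last pair differed 8.42-fold (0.773 and 6.51).

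**Figure D2:**
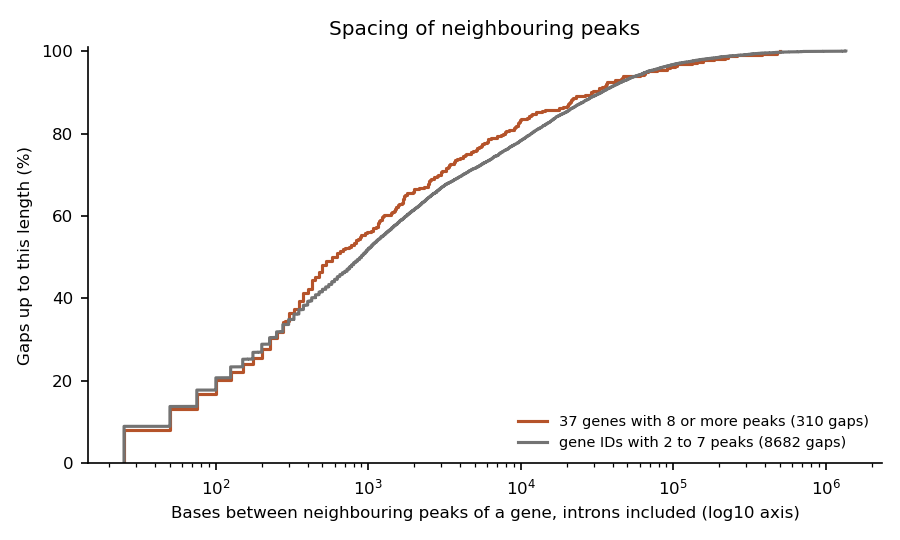
Cumulative share of gaps (percent) against gap length in bases on a log10 axis, for the 37 genes (310 gaps) and for gene IDs with 2 to 7 peaks (8682 gaps). Both curves start at 25 bases, and the median is 600 in the former and 900 in the latter.

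**Figure D3:**
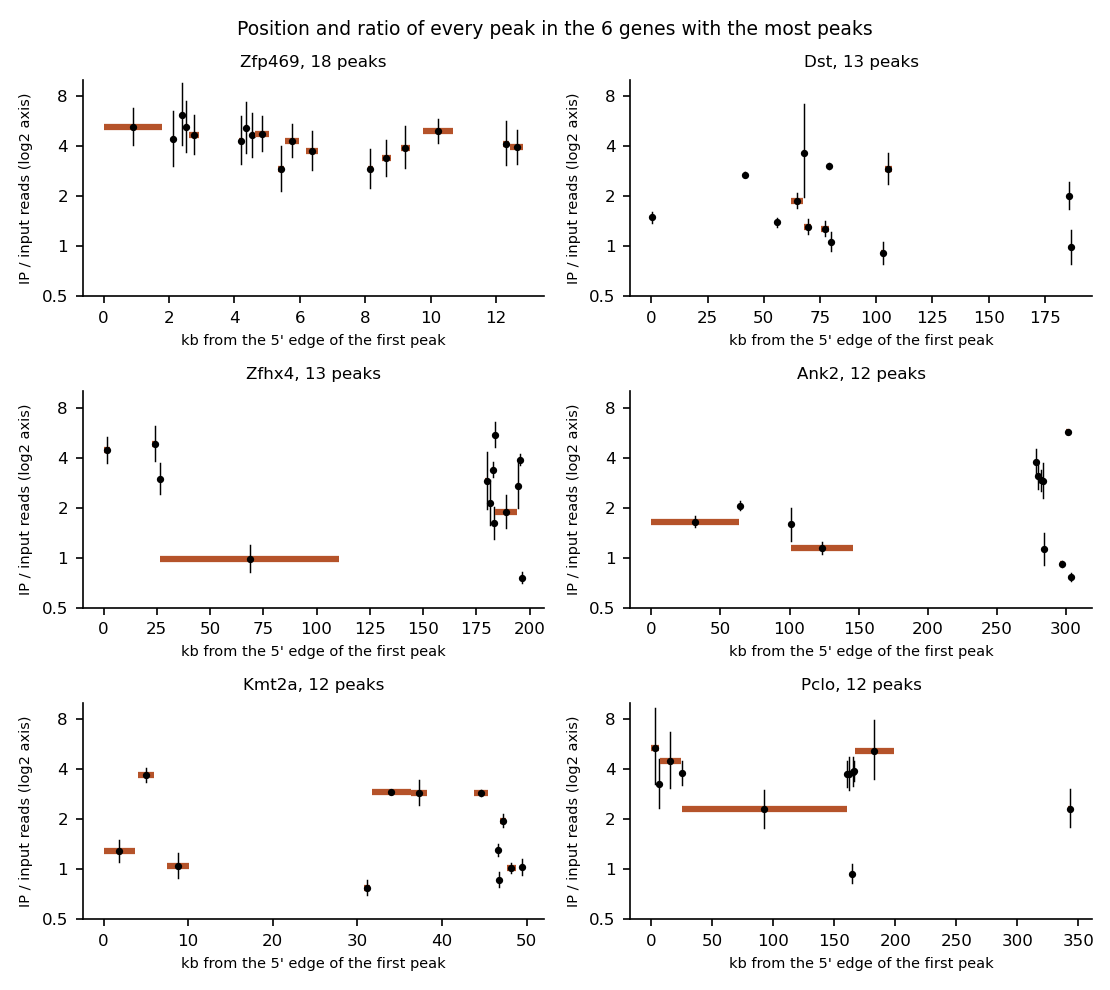
Every peak of the 6 genes with the most peaks, placed by its distance in kb from the 5' edge of the gene's first peak (orange bar, peak width) and its ratio of IP to input reads on a log2 axis (black, exact 95% interval). The 18 peaks of Zfp469 stay between 2.92 and 6.15, and in Ank2 the peak at 5.72 stands between neighbours at 0.917 and 0.764.

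Within a gene, the ratio of IP to input reads varied widely. The highest peak of a gene exceeded the lowest by a median of 5.46-fold over the 37 genes, from 1.68-fold in Enah to 12.9-fold in Rock1, and by at least 4-fold in 28. The median fold was 1.70 in gene IDs with 2 peaks, and 3.89, 4.12 and 3.85 in those with 5, 6 and 7. A range over more peaks tends to come out wider. The interval of a peak left out the pooled ratio of its own gene in 271 of 347 peaks (78.1%), though in only 2 of 18 in Zfp469. This share was not counted in other gene IDs, and the pooled ratio leans on the peaks with the most reads. The pseudocount was 0.5 throughout. Pooled over members, the SD of the log2 ratio among peaks of 1 gene was 0.85, while counting error alone gives 0.14, or 2.88% of the variance. Differences among a gene's peaks were thus much larger than counting error gives, and how far libraries differ is unknown. The median SD per gene was 0.86, against 0.79 in the 399 IDs with 5 to 7 peaks and 0.67 in the 4904 with 2 to 7. In the 12 members with 10 or more peaks the median SD was 0.75, below the 0.79, so it did not keep rising with the number of peaks. An SD over few values tends to come out low, and 2699 of the 4904 had only 2 peaks (median SD 0.54). The 0.67 is therefore not a like comparison.

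The gene a peak belonged to accounted for a minor part of the spread. Of the sum of squares of the log2 ratio, 25.5% lay between genes, where genes that shared one mean would give 10.4% from the degrees of freedom. Without Zfp469 it was 20.0%. Among the members, neighbouring peaks differed somewhat less where gaps were short. The median difference was 1.39-fold in the 25 pairs at 25 bases, 1.57-fold in the 174 with gaps of at most 1000 bases, which include them, and 1.72-fold in the 52 with gaps over 10000. Intervals did not overlap in 44.0%, 60.9% and 69.2% of these pairs. Over all 136 pairs with gaps above 1000 bases the median was 1.71-fold, so it hardly rose beyond that length. Zfp469, an even gene, gave 4 of the 25 pairs and 14 of the 174. In gene IDs with 2 to 7 peaks the median log2 difference was 0.75 up to 1000 bases and 0.79 above. In members it was 0.65 and 0.77.

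The most even genes were Enah and Zfp469, with SDs of 0.27 and 0.28. Counting error alone gives 0.15 and 0.21 there, and these were the only members whose SD was no more than 2 times that value. In Enah the 8 ratios lay between 1.76 and 2.96. Baz2b (0.37), Akap6 (0.52) and Tnrc18 (0.52) followed. By the log2 fold change in the authors' deposited table, the SD of Akap6 was 0.83, near the 0.84 that was the median of all members. Those of Enah (0.47), Zfp469 (0.24), Baz2b (0.54) and Tnrc18 (0.66) lay below that median. The least even were Phf20l1 and Mga (both 1.29), Rock1 (1.28) and Chd8 (1.26). In Rock1, from 5' to 3', the ratios were 0.629, 2.36, 8.09, 0.704, 0.770, 2.69, 2.04 and 3.12, with 240 input and 1942 IP reads in the highest. Chd8 ran 4.04, 0.935, 1.48, 6.52, 0.725, 1.08, 1.08, 5.79 and 0.823, so 3 peaks stood apart from 6 lower ones by this ratio. In the authors' deposited table the fourth and eighth peaks (4.77 and 4.61) kept the highest log2 fold changes, while the first (2.51) lay below the sixth (2.69) and the seventh.

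**Figure D4:**
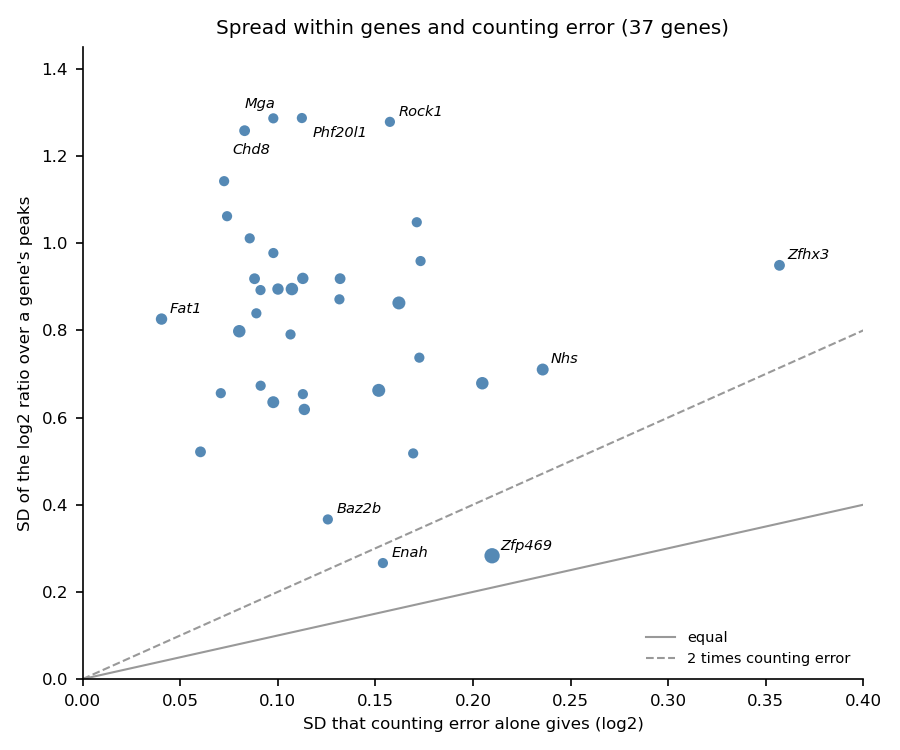
SD of the log2 ratio over the peaks of each of the 37 genes (vertical) against the SD that counting error alone gives (horizontal), point size by number of peaks, with lines where they are equal and where the former is 2 times the latter. Zfp469 and Enah lie under the dashed line, and Mga, Rock1 and Chd8 lie at the top, between 1.26 and 1.29.

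IP reads were concentrated in few peaks. The peak with the most IP reads held a median of 41.6% of its gene's IP reads, from 15.8% in Zfp469 to 88.5% in Macf1, and a median of 32.6% of the input reads. It held over 50% of the IP reads in 13 genes. The median ratio was 3.38 in the 69 peaks with under 100 input reads, 1.64 in the 188 with 100 to under 1000 and 2.23 in the 90 with 1000 or more. None of the 69 had fewer IP than input reads, against 44 of the 188 and 15 of the 90. Input reads are the denominator of the ratio and IP reads decided which peaks were called, so these values only describe the called peaks, and they did not fall steadily with depth.

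Along the gene, peaks nearest the 3' end had a median ratio of 2.34, interior peaks 2.24 and those nearest the 5' end 1.65 (37, 273 and 37 peaks). Their median widths were 575, 787 and 3318 bases in the same order, and the part of width in these ratios was not tested. Each class ran from under 1 to over 5, so the positions overlapped widely. By the ratio of reads, the strongest peak was the one nearest the 3' end in 8 of 37 genes (21.6%), and the one nearest the 5' end in 2. Ranked by the log2 fold change in the authors' deposited table, the share was 10.8%, and by IP reads it was 13.5%. An equal chance for each peak of a gene would give 11.1% (4.1 genes). The 95% interval of the 21.6% runs from 9.8% to 38.2% and takes the genes as independent. They were chosen by their called peaks, so the shares are only set side by side and no excess is claimed. In the 12 genes with 10 or more peaks the strongest peak was never the one nearest the 3' end. Each peak has a smaller equal chance there, and 12 genes are too few to set the result apart from it.

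The ranking of whole genes depended on which measure was read. In the authors' deposited table, the log2 fold change of member peaks ran from 0.80 to 5.74 with a median of 2.95, and 3.06 over all peaks. Within genes both measures mostly ran together, with a median Spearman correlation of 0.881 over the 37 genes (0.571 to 0.976). Both measures describe the same peaks, and whether they rest on the same libraries is not stated. The authors' deposited table exceeded the log2 ratio of reads by an amount that differed between genes, from a gene median of 0.99 in Zfp469 to 2.79 in Bclaf1 and Rock1. Zfp469 thus ranked 1 by median ratio and 15 by median log2 fold change (3.02) in the authors' deposited table. Rock1 moved the other way, from 15 to 2 (3.92 in the authors' deposited table), and 6 genes were among the top 10 by both.

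Other gene IDs were called at some of the same places. An opposite-strand peak overlapped 35 member peaks (10.1%, against 14.4% of all peaks) in 13 genes. They included all 5 of the Chd8 peaks nearest the 3' end, which lay under a plus-strand peak with 68 input and 254 IP reads, and 9 of 10 peaks of ENSMUSG00000024018. The second Fat4 peak, with 131 input and 402 IP reads, lay 2 bases off a minus-strand peak of the same width from another ID with 3017 and 10211 reads. Reads were not counted alike for both strands there. The unnamed ID and its plus-strand counterpart had 254 and 231 input reads on one shared interval and 568 and 103 on the other, and 369 and 618, and 1145 and 134, IP reads. A minus-strand peak with 3573 input reads also lay wholly inside a plus-strand peak with 354. No source used here says how reads were assigned to a strand or gene. Without these 35 peaks the median ratio of the members was 2.18.

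Genes just inside and just outside the rule compare as follows, with no test. The 20 genes with exactly 8 peaks had a median ratio of 1.81 and 545 input reads per peak, and the 49 IDs with 7 peaks had 2.13 and 375. By median log2 fold change in the authors' deposited table the order was reversed, with 3.08 in the genes with 8 peaks and 2.90 in the IDs with 7. The median SD per gene was 0.88 in the former and 0.76 in the latter.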

How the data were processed

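The same 21195 peaks were deposited as a list and as a table. Its deposited read counts are whole numbers per peak, for input and for IP, and the headers name no library and do not say whether they are sums over libraries; intervals take them as counts. The deposited log2 fold changes, p-values and scores are the authors' own, and no source used here states the test behind them. STAR 2.5.2a, Trimmomatic 0.32 and bcl2fastq 2.17.1.14 appear without roles in the submitters' processing notes, beside the builds GRCm38.p6 and GRCh38.p13. No source used here names the peak caller or its libraries. Ratios were IP over input reads, and SDs used log2 with a pseudocount of 0.5. A gene ID was named by the 1 RefSeq gene (GRCm38.p6) holding at least 75% of its peaks, each with 50% of the shorter of peak and gene. In 7 named genes 1 peak lay outside the RefSeq span. Promoters came from RefSeq for the 30 members in that table. Peak sequences were not used here. Members and gene lists were chosen with earlier results of these data known. Named genes were those with the most peaks and those at either end by median ratio, SD and median gap, besides list members. The values of 1 member gene are not reported here by name. No column allowed a comparison of knockout with control. Steps were tested on simulated data. Python 3.11.15, pandas 2.3.3 and SciPy 1.17.1 were used.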

Additional observations from a re-analysis of the deposited data

How the results depend on the processing

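Each median and share here rests on counts without replicates, so how far any of them would differ between libraries is unknown. Thin peaks (under 100 input reads) have counting intervals with a median 1.98-fold width. With 7 or more peaks per ID there were 86 genes and 690 peaks, and with 10 or more 12 genes and 142 peaks, a median gap of 375 bases, a median ratio of 2.58 and no gene (0%) with its strongest peak nearest the 3' end. So few genes cannot set that 0% apart from an equal chance for each peak. Requiring a log2 fold change above 2 in the authors' deposited table left 17 genes with 170 peaks, a median SD of 0.67 and a median ratio of 2.88. The median gap was 3716 bases from midpoint to midpoint and 350 between neighbours of at most 1000 bases. Counting neighbours within 100 bases as 1 peak, chosen after seeing the data, left 18 genes. The other 34 values stayed within their 95% interval or within 1.5 times the reported value. Among them were those with a pseudocount of 5 or only peaks of 50 or more input reads. These intervals were 425 to 950 bases for the median gap, 0.71 to 0.92 for the median SD and 1.85 to 2.45 for the median ratio. They rest on the member peaks and genes alone and do not cover libraries. The allowance is wide: the 27 genes left with neighbours within 25 bases joined fall under it. No paired analysis was possible because no column belongs to a library or genotype.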
